A study of Mus musculus with 22 samples.

Results

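Matrix metalloproteinases (MMPs) are zinc-dependent proteases that cut collagens, gelatins, elastin and other parts of the extracellular matrix, and tissue inhibitors of metalloproteinases (TIMPs) bind their active site. This account covers 10 genes of these families, Mmp2, Mmp3, Mmp9, Mmp10, Mmp12, Mmp13, Mmp14, Timp1, Timp2 and Timp3, of 18193 genes with a probe set of their own on the arrays. The genes were chosen by symbol, and all 22 probe sets that the annotation pairs with them were taken, of 45037 in all. A probe set is a group of short probes on an Affymetrix expression array whose signals are summarized to 1 intensity.

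The 22 samples fall into 4 groups, all on a C57BL/6 background. A2C12 is a lung tumour cell line derived from a mouse that carried both a c-myc and a c-raf transgene. Its side population, the live cells that pump out the DNA dye Hoechst, was sorted by flow cytometry. The untreated group holds 3 preparations of these sorted cells, and the antibody group holds 3 preparations kept with a monoclonal antibody against mouse EpCAM at 100 µg/ml for 48 h before the sort. The normal tissue is lung of mice without the transgenes, 8 samples labelled male and 8 labelled female, whose ages the labels do not give. Both cell groups descend from the doubly transgenic mouse and went through the dye and the sort, while the lungs carry no transgene and were not sorted. All cells come from 1 line, and unsorted A2C12 cells were not analysed here. Samples of a group are labelled as biological replicates, with nothing on which cultures the cells came from, so p-values measure the spread between these preparations.

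Median intensity per array was 39.3 to 40.6 for the cells and 47.9 to 54.6 for lung. Across all probe sets, replicate arrays correlated at r between 0.968 and 0.993 on the log2 scale. Lung arrays 3 and 4 of the male-labelled group read 1512 and 1583 for Xist and under 10 for the Y-linked gene Uty, against their label, so results on lung are also given without them. The summed intensity of 10 alveolar and airway epithelial markers was 116 to 176 in the cells and 65475 to 85619 in lung, with at most 2 of the 10 above the detection filter on any cell array. Defining markers of differentiated lung epithelium were thus near the bottom of the scale in the line.

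Most MMPs are secreted as inactive proenzymes and are grouped by what they cut. Mmp13 is a collagenase, Mmp3 and Mmp10 are stromelysins, Mmp2 and Mmp9 are gelatinases, Mmp12 is the elastase of macrophages, and Mmp14 is anchored in the plasma membrane, where it activates pro-Mmp2 with the help of Timp2. In normal lung, neutrophils store Mmp9 and Mmp8 in granules, alveolar macrophages are a source of Mmp12, and fibroblasts make Mmp2 and Timp2. Transcription of several stromelysins and collagenases responds to growth factors through AP-1, a dimer of Fos and Jun proteins.

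Mmp13, Mmp12, Mmp3 and Mmp10 lie in a single cluster on mouse chromosome 9. In the order of the RefSeq annotation of GRCm38.p6 it reads Mmp13, Mmp12, Mmp1b, Mmp3, Mmp1a, Mmp10, Mmp8, Mmp27, Mmp20 and Mmp7, 10 adjacent protein-coding genes. The other members lie elsewhere. RefSeq promoters of GRCm38.p6, taken as 250 bases before to 50 after each annotated start, were matched for 8 of the 10 genes, and Mmp12 had 2 of them. The consensus AP-1 site TGAGTCA, read on either strand (reverse complement TGACTCA), occurred in 4 of these 9 promoters, those of Mmp13, Mmp12 (its second start), Mmp3 and Mmp10, all in the cluster. Of all 32851 promoters of the table, 5.2% held it. The sequences below are shown because the cluster genes share this site close to the start while their levels, given further on, part ways. Each is the plus strand, 5′ to 3′, of the 150 bases before the start, with the AP-1 match in capitals.
Mmp13 (chr9:7272364-7272513, reverse orientation, first base 35 bases before the start): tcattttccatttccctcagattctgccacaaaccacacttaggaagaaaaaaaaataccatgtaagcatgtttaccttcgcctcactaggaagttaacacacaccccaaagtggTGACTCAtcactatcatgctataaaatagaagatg
Mmp12 (chr9:7347224-7347373, first base 44 bases before the second start): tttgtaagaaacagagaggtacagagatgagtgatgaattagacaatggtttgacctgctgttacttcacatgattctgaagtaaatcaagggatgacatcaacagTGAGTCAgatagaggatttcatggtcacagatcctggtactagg
Mmp3 (chr9:7445672-7445821, first base 46 bases before the start): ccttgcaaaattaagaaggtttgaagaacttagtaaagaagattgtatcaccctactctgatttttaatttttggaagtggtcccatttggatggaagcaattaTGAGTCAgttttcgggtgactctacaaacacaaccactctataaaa
Mmp10 (chr9:7502192-7502341, first base 63 bases before the start): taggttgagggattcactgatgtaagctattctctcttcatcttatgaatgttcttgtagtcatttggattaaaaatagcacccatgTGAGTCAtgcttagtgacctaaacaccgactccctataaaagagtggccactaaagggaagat

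The TATA box letters TATAAA were found in the same 4 promoters and in 13.6% of all promoters. Their first base lay 29 bases before the start in Mmp10, 16 in Mmp13 and 7 in Mmp3. In Mmp12 it was base 5 after the second start, outside the bases shown. The RUNX site AACCACA occurred in 1 of the 9, that of Mmp13, against 5.27% of all promoters. The ETS core was searched as AGGAAG, found in 6 of 9 member promoters and 35.4% of all, and as AGGATG, found in 1 of 9 and 17.2% of all. A 10-letter consensus NF-kappaB site was in none of the 9 and in 0.155% of all. Both strands were searched for each motif, no 2 matches in a member promoter shared a base, and a match is only a run of letters. Promoters of Timp1, Timp2, Timp3 and Mmp14 held none of the AP-1, TATA or RUNX letters searched.

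**Figure D1:**
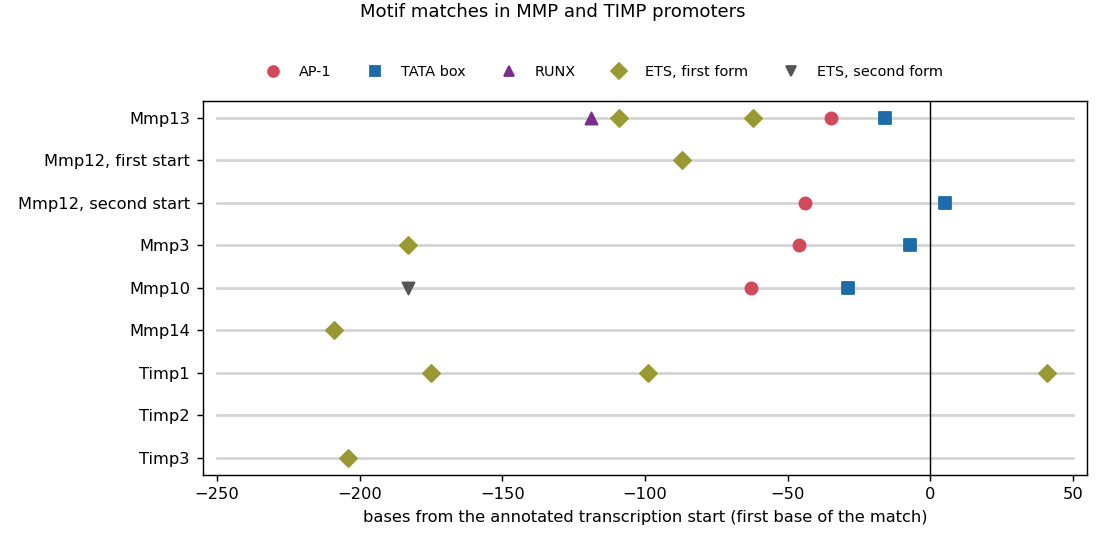
Positions of the searched motifs in the 9 matched promoters; the x axis gives bases from the annotated start, each symbol the first base of a match on either strand. AP-1 matches stand 35 to 63 bases before the start in 4 promoters of the chromosome 9 cluster and in no other member promoter.

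The first question of the study is how the sorted tumour cells differ from normal lung. Timp1, Mmp10, 2 of 4 probe sets of Timp3 and 1 probe set of Mmp14 were higher in both cell groups and Mmp13 in untreated cells. Mmp2, Mmp9, Mmp12 and part of the Timp2 probe sets were lower. Mmp3 readings of cells and lung overlapped. Of the 21 member probe sets tested in untreated cells, 6 were higher and 7 lower by limma at an adjusted p of 0.05 and at least 2-fold, and 8 did not pass. Over all 32533 probe sets tested, 20.1% were called higher and 19.6% lower. In antibody-treated cells 20 member probe sets were tested, 6 were higher, 7 lower and 7 did not pass, where 19.8% of all 32422 were higher and 19.6% lower. Both comparisons share the 16 lung arrays and 1 variance per probe set over all 4 groups. Where cell preparations spread more than lungs, the standard errors (SE) and p-values against lung understate that spread. On the log2 scale the SD of Mmp2 1416136_at was 0.48 and 0.53 in the cell groups and 0.18 in lung. For Mmp14 1448383_at it was 0.59 and 0.55 against 0.13. Mmp12 went the other way, at 0.25 and 0.11 against 0.73. Untreated cells lay wholly above lung for 7 and wholly below it for 7 member probe sets, and 35.4% and 28.3% of all probe sets did so; in antibody-treated cells these were 8 and 6, against 33.2% and 27.8% of all. Median log2 change was 0.13 over the tested member probe sets and 0.15 over all probe sets in untreated cells, and -0.05 and 0.13 in antibody-treated cells. A lung sample is a mix of cell types, so that fewer cells of a type and less RNA per cell cannot be told apart.

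Scaling moved these totals. In untreated cells 50.6% of all called probe sets were higher, against 40.3% without normalization and 55.2% with median centring, and the corresponding shares in antibody-treated cells were 50.3%, 40.3% and 55.3%. The median of all probe sets lay at -0.04 without normalization and 0.23 with median centring in untreated cells. Members called kept their direction under both scalings. With median centring the Timp2 set 1460287_at (1.04) and the Timp3 set 1419089_at (1.15) also passed in untreated cells, and the Mmp14 set 1448383_at (1.26) in antibody-treated cells.

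**Figure D2:**
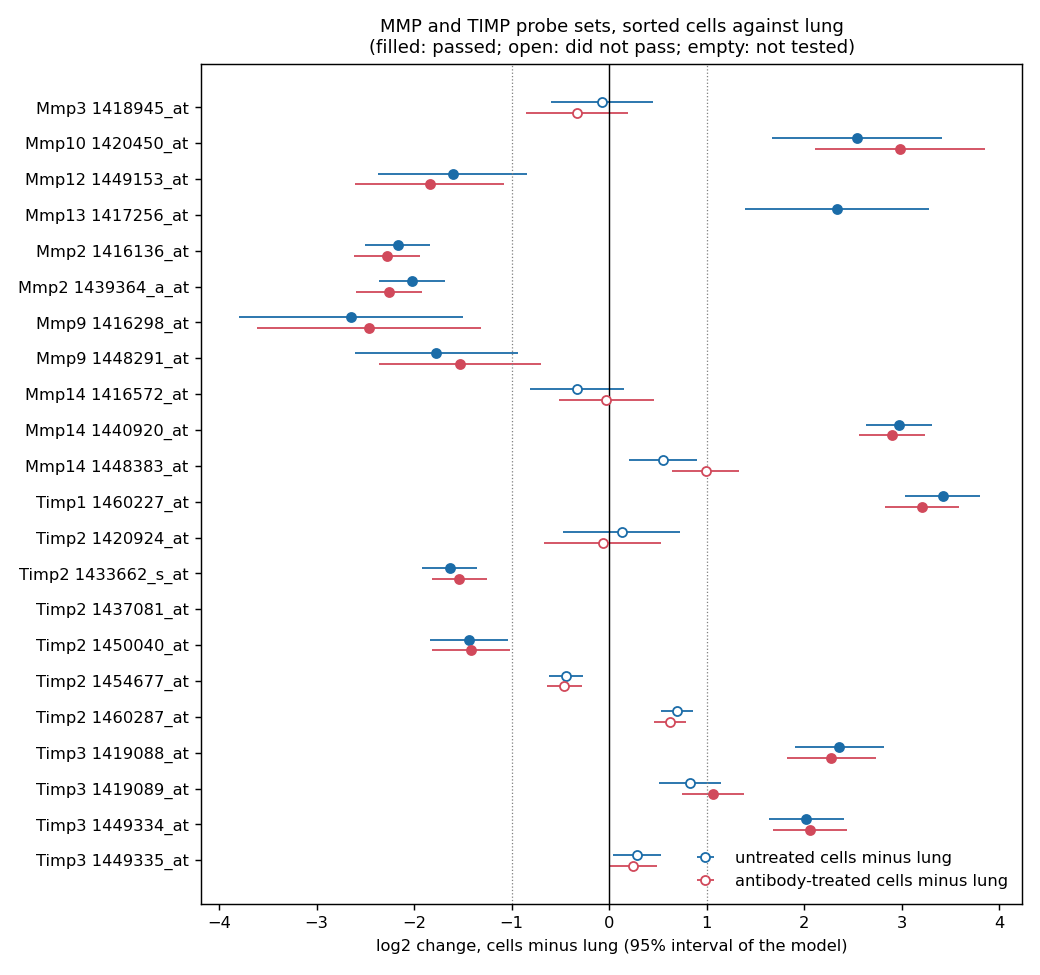
Log2 change, cells minus the mean of male and female lung, for the 22 member probe sets with 95% intervals of the model; blue is untreated and red antibody-treated cells, filled points passed the test and the 2-fold requirement, open points did not, and an empty row was not tested. The largest rise was Timp1 at 3.42 in untreated cells and the largest fall 1 of the Mmp9 probe sets at -2.65. That fall was -1.75 without untreated preparation 3, which read near 0.

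Among the inhibitors, Timp1, a secreted inhibitor of most soluble MMPs that is induced by growth factor signalling, stood furthest above lung. Its single probe set read 2214, 2918 and 1398 in the 3 untreated preparations and 2028, 1477 and 1803 in the antibody-treated ones. In lung it ran from 122 over a median of 181 to 276. Every cell array thus lay at least 5 times above every lung array. Timp1 was 3.42 ± 0.19 (SE) higher on the log2 scale in untreated cells (limma adjusted p = 2.28e-14) and 3.21 ± 0.19 higher in antibody-treated cells (limma adjusted p = 8.08e-14).

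Timp3, the inhibitor that stays bound to the matrix and also acts on ADAM proteases, has 4 probe sets. The set 1449334_at read 2449, 2374 and 1285 in untreated cells, 2371, 2306 and 1413 in antibody-treated cells, and 282 to 682 in lung with a median of 485. It was higher by 2.02 ± 0.18 and 2.06 on the log2 scale. The set 1419088_at read 944, 748 and 318 in untreated cells, 840, 548 and 404 in antibody-treated cells, and 89.1 to 176 in lung around a median of 111. Here the changes were 2.36 ± 0.22 and 2.28, and for both sets the cell and lung arrays did not overlap. The brighter sets changed less. For 1419089_at the mean was 4165 ± 1440 (SD, n = 3) in untreated cells, 4947 ± 771 (n = 3) in antibody-treated cells and 2170 ± 337 (n = 16) in lung, and only the antibody-treated cells passed, at 1.07 against 0.83 on the log2 scale. For 1449335_at the means were 4728 ± 1022, 4871 ± 1269 and 3628 ± 361, and neither difference of 0.28 or 0.25 passed. The probe sets of Timp3 therefore agreed in direction and differed in size, from 1.2-fold to 5.1-fold in untreated cells.

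Timp2, which both inhibits MMPs and helps Mmp14 to activate pro-Mmp2, gave no single answer. The set 1433662_s_at read 855, 1551 and 733 in untreated cells and 915, 986 and 1316 in antibody-treated cells, below lung at 2594 to 3459 (median 3117). It was lower by 1.64 ± 0.14 on the log2 scale in untreated cells (log2 change -1.64, limma adjusted p = 7.61e-11) and by 1.54 in antibody-treated cells (log2 change -1.54). Its SD on the log2 scale was 0.55 and 0.24 in the cell groups and 0.13 in lung, so this SE understates the spread between cell preparations. The set 1450040_at, at 177, 320 and 173 untreated, 192, 207 and 262 antibody-treated and 456 to 952 in lung, changed by -1.44 ± 0.19 and -1.42. Another set, 1460287_at, ran the other way. It read 4402, 3744 and 3410 untreated and 3609, 3600 and 3815 antibody-treated, all above lung at 1988 to 2610, yet its changes of 0.69 and 0.62 were under 2-fold. The brightest set, 1454677_at, changed by -0.45 and -0.46 (limma adjusted p = 3.98e-05 and 2.84e-05), also under 2-fold. For 1420924_at the changes were 0.13 and -0.07 (limma adjusted p = 0.695 and 0.838). None of these sets passed. The set 1437081_at was below the filter on every array, with means of 15.5, 14.1 and 4.32 in untreated cells, antibody-treated cells and lung. Timp2 RNA was well detected in both cells and lung, and its direction depended on the probe set.

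Mmp14, the membrane-anchored activator of pro-Mmp2, has 3 probe sets that also disagreed. The set 1440920_at read 476, 612 and 324 in untreated and 432, 340 and 536 in antibody-treated cells, where lung ran from 34.6 to 75.8 around a median of 49.6. No cell array overlapped lung, and the rise was 2.97 ± 0.17 in untreated cells (limma adjusted p = 3.58e-14) and 2.90 in antibody-treated cells. The brightest set, 1448383_at, read 1084, 1389 and 592 untreated, 1242, 890 and 2039 antibody-treated, and 486 to 759 in lung (median 664). Its changes of 0.55 and 0.99 did not reach 2-fold, although all 3 antibody-treated arrays lay above lung. The dimmest set, 1416572_at, averaged 71.2 ± 35.8 and 91.1 ± 34.2 in the cells (SD, n = 3) and 116 ± 30.2 in lung (n = 16), with changes of -0.33 (limma adjusted p = 0.195) and -0.03.

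Mmp10, stromelysin 2, and Mmp13, collagenase 3, varied widely among the cell preparations, and all but 1 of the 6 cell arrays read above lung for both genes. Mmp10 (1420450_at) read 739, 77.7 and 72.5 in untreated preparations 1, 2 and 3 and 373, 571 and 54.8 in antibody-treated preparations 1, 2 and 3. Lung read 9.77 to 29.4, all under the filter of about 29.9, so the probe set was tested only because cells were above it and could hardly have come out lower. Mmp10 was higher than lung by 2.54 ± 0.42 (limma adjusted p = 7.21e-06) and 2.98 ± 0.42 (limma adjusted p = 6.90e-07) on the log2 scale. With lung set to the filter level and no offset, the mean of the cells on the log scale was at least 6.05-fold and 8.43-fold higher. These bounds, like those given below, cover the level of the side under the filter and not the spread between arrays. Untreated preparations 2 and 3, at 77.7 and 72.5, lay far nearer the filter than preparation 1. With offsets of 64 and 1 the log2 change was 1.68 and 3.21 in untreated cells and 2.04 and 3.69 in antibody-treated cells. Both groups lay above lung on all 3 arrays, but the highest cell array of a group was 10.2 times its lowest in untreated and 10.4 times in antibody-treated cells. Without untreated preparation 1 and without the filter, the Mmp10 rise in untreated cells was 1.61, and without antibody preparation 3 it was 3.84 in antibody-treated cells.

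Mmp13 (1417256_at) read 299, 37.7 and 76.8 in untreated and 236, 450 and 21.5 in antibody-treated preparations 1, 2 and 3. In lung it ran from 0.444 to 29.3 with a median of 8.90, below the filter on all 16 arrays. Antibody-treated preparation 3 lay inside that range, and the other 5 cell arrays above it. Like Mmp10, the probe set entered the test only through the cells and could hardly have come out lower. It was higher in untreated cells by 2.33 ± 0.46 (limma adjusted p = 5.82e-05), and by 1.65 when untreated preparation 1 was left out and no filter was set. Against lung at the filter level the mean rise on the log scale was at least 3.68-fold, although untreated preparation 2, at 37.7, lay close to the filter. With offsets of 64 and 1 the log2 change was 1.33 and 3.53. In antibody-treated cells only 2 arrays were above the filter, so Mmp13 was not tested there; without the filter, a setting tried after the data were seen for this value, its change was 2.78 ± 0.45. Untreated preparation 1 and antibody-treated preparations 1 and 2 were thus the 3 arrays with the highest Mmp10 and the highest Mmp13. The variance behind each SE is shared by all 4 groups, and the spread of Mmp10 lay in the cells, with an SD of 1.61 and 1.53 on the log2 scale in the cell groups and 0.18 and 0.21 in the lung groups. For Mmp13 the SD was 1.26 and 1.87 in the cell groups and 0.41 and 0.34 in the lung groups. The SE and p-values of both genes against lung therefore understate the spread between cell preparations.

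Mmp3, stromelysin 1, lies between them in the cluster and was not called against lung. It read 582, 387 and 265 in untreated cells, 382, 390 and 211 in antibody-treated cells, and 172 to 687 in lung with a median of 506. All 6 cell arrays fell inside the lung range, whose low end is set by male-labelled lungs 3 and 4; without these lung started at 352, above preparation 3 of each cell group. The change was -0.08 ± 0.25 in untreated cells (95% interval -0.60 to 0.45, limma adjusted p = 0.789) and -0.33 ± 0.25 in antibody-treated cells (95% interval -0.85 to 0.19, limma adjusted p = 0.235). Its direction turned with median centring in untreated cells, to 0.0909. Without male-labelled lungs 3 and 4 the changes were -0.23 (limma adjusted p = 0.217) and -0.48 (limma adjusted p = 0.0127), the latter under 2-fold.

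**Figure D3:**
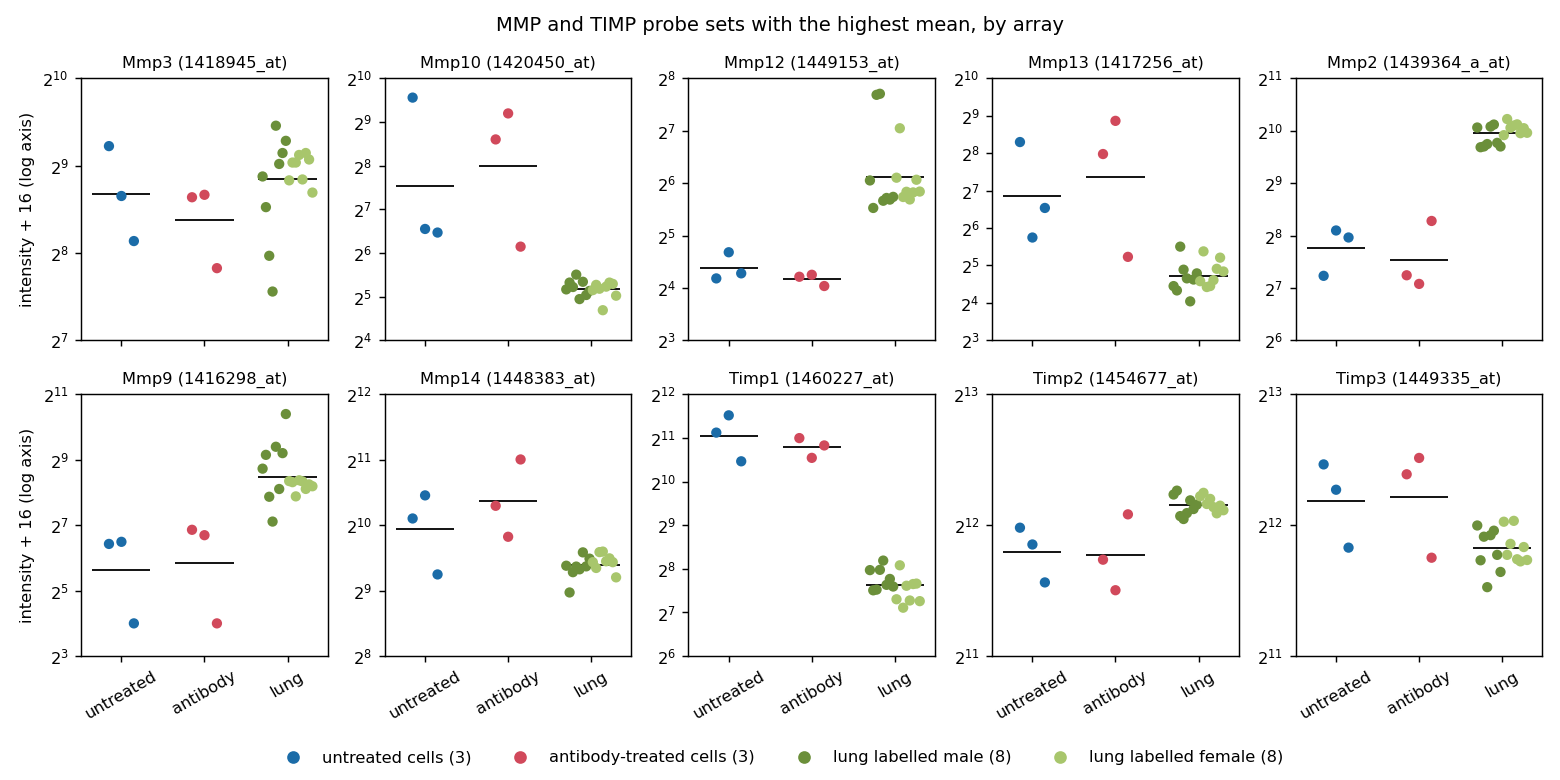
Intensity + 16 on a log axis for the brightest probe set of each of the 10 genes, with 1 point per array for untreated cells (3), antibody-treated cells (3) and lung labelled male (8) or female (8); black lines are means on the log scale. Timp1 and Mmp10 lie above lung on every cell array, Mmp2, Mmp9 and Mmp12 below it, and Mmp3 overlaps it.

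The gelatinases were lower in the cells. Mmp2, which cleaves denatured and type IV collagen, read 134, 258 and 233 on 1439364_a_at in untreated cells and 135, 119 and 294 in antibody-treated cells. Lung read 808 to 1180 with a median of 1012, so that no cell array came within 2-fold of lung. Its change was -2.03 ± 0.16 (limma adjusted p = 4.70e-11) and -2.26, and on its second set, 1416136_at, -2.17 ± 0.16 and -2.28. Among the cells Mmp2 ran against Mmp10. Untreated preparation 1 and antibody-treated preparations 1 and 2 had the 3 lowest values of 1439364_a_at.

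Mmp9 (1416298_at) read 70.1, 74.1 and 0.0064 in untreated and 100.2, 87.6 and 0.0080 in antibody-treated cells, where lung ran from 122 to 1333 around a median of 305. Replicate 3 of each cell group was at the bottom of the scale. The SD on the log2 scale was 1.55 and 1.72 in the cell groups and 1.03 and 0.15 in male-labelled and female-labelled lung. Under the shared variance the SE therefore understates the spread between cell preparations. Mmp9 was lower by 2.65 ± 0.56 in untreated cells (log2 change -2.65, limma adjusted p = 0.000134) and by 2.46 in antibody-treated cells (log2 change -2.46, limma adjusted p = 0.000310). Without preparation 3 of the group concerned the change was -1.75 and -1.46. Its second probe set, 1448291_at, was below the filter on all 6 cell arrays, at 0.0263 to 19.6, against 7.86 to 242 in lung, and overlapped lung. The changes there were -1.77 ± 0.40 and -1.53.

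Mmp12 (1449153_at) read 2.13, 9.64 and 3.39 in untreated cells and 2.53, 3.03 and 0.395 in antibody-treated cells, below the filter on all of them. Lung read 30.1 to 193 with a median of 40.8, and no array overlapped. The log2 change was -1.60 ± 0.37 (limma adjusted p = 0.000380) and -1.84 (limma adjusted p = 8.24e-05). The probe set entered the test only through lung and could hardly have come out higher. With the cells set to the filter level and no offset, Mmp12 was at least 1.64-fold lower in both groups, and Mmp9 on 1448291_at, likewise tested only through lung, at least 1.97-fold lower. These sizes depend on the offset of 16 added before the log. With an offset of 64, Mmp12 changed by -0.75 and -0.82 and Mmp9 on 1448291_at by -0.88 and -0.78, under 2-fold, and with an offset of 1 Mmp12 changed by -2.94 and -3.88.

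Markers of white blood cells moved with Mmp9 and Mmp12. The summed intensity of 9 neutrophil markers was 135 to 465 in the cells and 6227 to 20094 in lung, and that of 9 macrophage markers was 517 to 784 in the cells and 15405 to 26119 in lung. In the cells S100a9, Csf3r, Cxcr2, Ltf and Mmp8 were below the filter on all 6 arrays, as were Chil3, Marco, Adgre1, Itgax and Mrc1. On each cell array 2 or 3 of the 9 neutrophil markers and 3 or 4 of the 9 macrophage markers were above it. All 8 neutrophil markers tested and 8 of 9 macrophage markers were called lower in both cell groups, where 23.5% and 23.7% of all genes were. Markers below the filter on all 6 cell arrays entered the test only through lung and could hardly have come out higher. These counts therefore only describe the levels above. Fibroblast markers, whose cells are a source of Mmp2 and Timp2, summed to 6633 to 11564 in the cells and 16383 to 22693 in lung, and 7 of 10 were lower and 1, Col1a1, higher. Their part in these differences was not tested.

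Across the 16 lungs, Mmp9 and Mmp12 spread most among the members above the filter on 15 or more of them, with an SD of 0.77 and 0.81 on the log2 scale for the Mmp9 sets and 0.73 for Mmp12. Without male-labelled lungs 3 and 4 these were 0.71, 0.68 and 0.36, and Mmp12 then came after the Timp2 set 1420924_at at 0.55. Its probe set 1416298_at ran between 219.8 and 316 in the 8 female-labelled samples and between 122 and 1333 in the 8 male-labelled ones. The highest reading, 1333, came from male-labelled lung 8, followed by 659, 574 and 552 in male-labelled lungs 5, 7 and 2. Those 4 lungs also had the 4 highest sums of neutrophil markers, 19614, 20094, 15015 and 15767. Both Mmp9 probe sets agreed over the lungs at r = 0.946 (n = 16).

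Mmp12 had another set of high arrays. It read 190.0 and 193 in male-labelled lungs 3 and 4 and 116 in female-labelled lung 2, where the other 13 lay between 30.1 and 52.8. These 3 lungs had the highest sums of macrophage markers, 26119, 25741 and 22467, with female-labelled lung 1 close at 22334 and an Mmp12 reading of 52.8. Mmp3 was lowest in male-labelled lungs 3 and 4, at 234 and 172, where the other 14 lay between 352 and 687. The 2 arrays whose Xist and Uty readings go against their label were thus at an extreme for both genes. They also had the lowest sums of endothelial markers, 22239 and 16866, and of smooth muscle and pericyte markers, 8758 and 7372, of all lungs. Whether the tissue differs for another reason was not tested. Without them all 13 calls of each cell comparison held, and the largest shifts took Mmp12 from -1.60 to -1.35 in untreated and from -1.84 to -1.58 in antibody-treated cells.

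**Figure D4:**
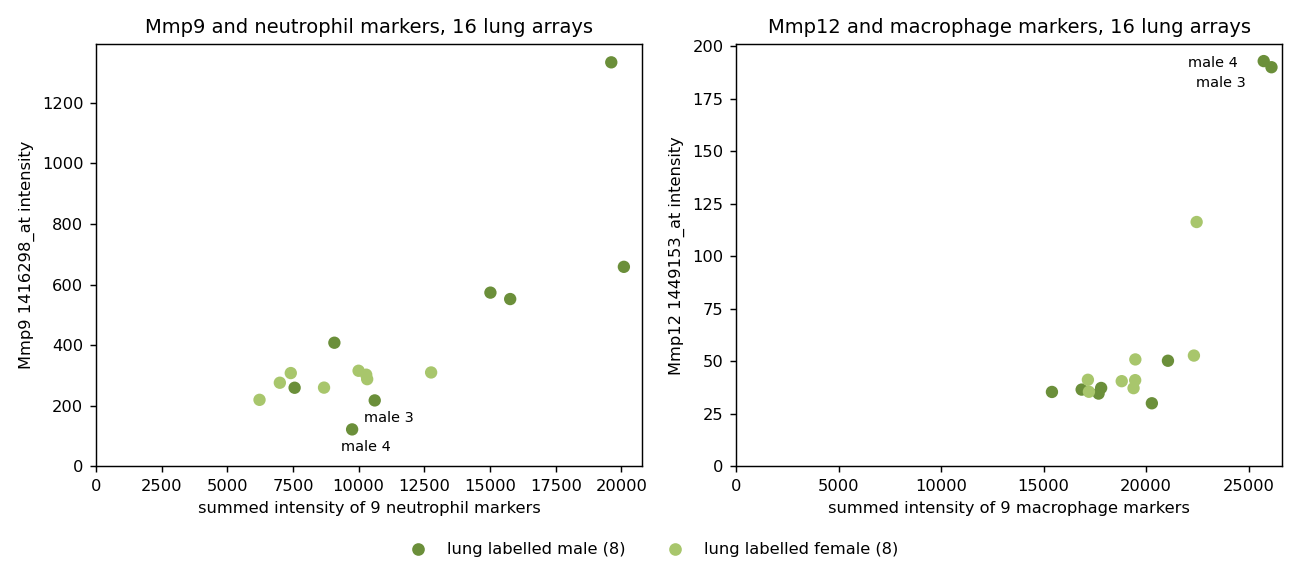
Left, Mmp9 intensity against the summed intensity of 9 neutrophil markers; right, Mmp12 intensity against the summed intensity of 9 macrophage markers, with 1 point for each of the 16 lung arrays and male-labelled arrays 3 and 4 named. The 4 highest Mmp9 readings, 552 to 1333, stand at the 4 highest neutrophil sums, and the 3 highest Mmp12 readings, 116 to 193, at the 3 highest macrophage sums.

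Genes with a like pattern over the lungs were sought for the 3 member probe sets that varied most among those above the filter on all 16 lung arrays, against 19975 probe sets. For Mmp9 they were Slfn4 (Pearson r = 0.964, Spearman rho = 0.918), H2-Q10 (r = 0.953, rho = 0.962) and Slc2a3 (r = 0.942, rho = 0.868), and r was 0.962, 0.967 and 0.939 over the 14 arrays without male-labelled lungs 3 and 4. For the Timp2 set 1420924_at they were Tapbp (r = 0.913, rho = 0.918), Mef2a (r = 0.909, rho = 0.894) and Inpp5k (r = 0.906, rho = 0.871), and these too were at 0.904 or above over the 14 arrays. For Mmp3 they were Cyp4f15 (r = 0.931, rho = 0.656), Kctd15 (r = 0.923, rho = 0.553) and Crispld2 (r = 0.916, rho = 0.659), which fell to 0.587, 0.484 and 0.581 without those 2 lungs and so rest on them. The genes were picked as the highest of many and the arrays share their normalization, so these values are a description.

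Whether sex matters to the members was asked over the 16 lungs. None of 19 member probe sets tested passed the limma test at an adjusted p of 0.05, and 3 had an unadjusted p under 0.05; of all 29538 probe sets 0.108% were called and 10.1% had an unadjusted p under 0.05. Mmp2 was closest, with female minus male changes of 0.21 on 1439364_a_at (limma adjusted p = 0.346) and 0.19 on 1416136_at (limma adjusted p = 0.455). Mmp9 differed by -0.55 ± 0.32 and -0.56 ± 0.34 on its probe sets, and Mmp12 by -0.25 ± 0.32. Leaving out male-labelled lungs 3 and 4 changed this. Mmp9 on 1448291_at was then lower in female-labelled lung, at -1.04 (limma adjusted p = 0.0454), its other set was at -0.95 (limma adjusted p = 0.117), and Mmp12 turned to 0.26.

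The other question is what the antibody against EpCAM, an epithelial adhesion and signalling protein, did to the sorted cells. For the members no change was detected. Of 19 probe sets tested over the 6 cell arrays, none passed the limma test, all adjusted p were 0.9999, and none had an unadjusted p under 0.05, the smallest being 0.228. Of all 27499 probe sets 3 were called, or 0.0109%, and 331, or 1.20%, had an unadjusted p under 0.05. No member probe set was separated between the groups, where 1.57% of all lay fully higher and 2.26% fully lower. Log2 changes ran from -0.25 to 0.45.

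The precision differed widely between members. For 14 of the 19 probe sets the 95% interval lay within 2-fold either way. Timp1 changed by -0.21 ± 0.24 (95% interval -0.77 to 0.35) and Mmp3 by -0.25 ± 0.28 (95% interval -0.90 to 0.39). For Mmp10 the change was 0.45 ± 0.88 with an interval of -1.57 to 2.46, for Mmp13 0.45 ± 0.90 with -1.60 to 2.49, and for Mmp9 on 1416298_at 0.19 ± 0.92 with -1.90 to 2.29. Rises of 4-fold in these 3 genes are inside what the 6 arrays allow. Each of them changed sign when single preparations were left out, with ranges of -0.14 to 1.37 for Mmp10, -0.30 to 1.49 for Mmp13 and -0.71 to 1.19 for Mmp9. Mmp12 and the second Mmp9 probe set were below the filter on the cell arrays and were not tested.

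**Figure D5:**
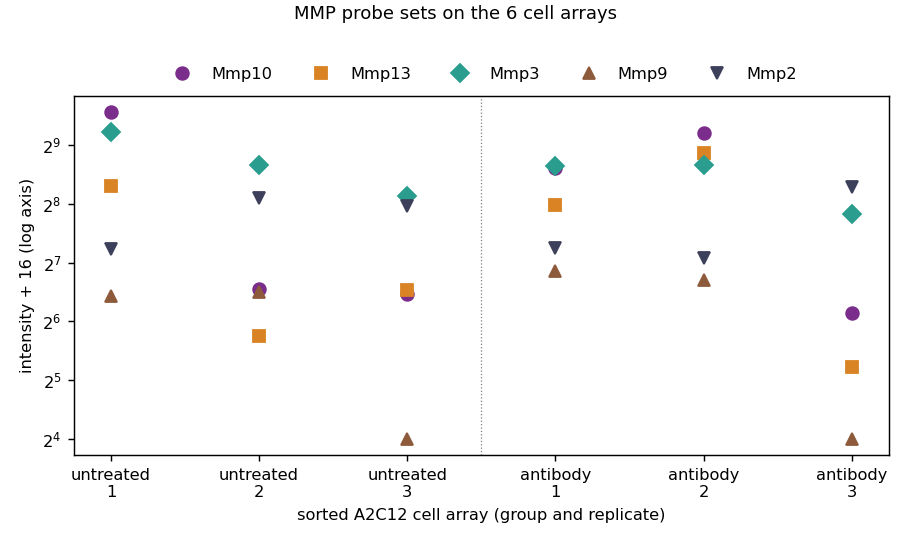
Intensity + 16 on a log axis for Mmp10, Mmp13, Mmp3, Mmp9 (1416298_at) and Mmp2 (1439364_a_at) on each of the 6 sorted cell arrays, by group and replicate. Mmp10 and Mmp13 are high in untreated 1 and antibody 1 and 2 and low in the other three, Mmp2 runs the opposite way, and Mmp9 is near 0 in replicate 3 of each group.

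The remaining MMPs and the fourth TIMP were counted by 1 probe set per gene. Of 17 such genes 12 had a named probe set, and 9 were tested against lung, of which 1 was higher and 3 were lower in both cell groups, with a median log2 change of 0.31 in untreated cells. In a fit of 1 probe set per gene, 17.5% of all genes were higher and 23.5% lower in untreated cells. In antibody-treated cells these shares were 16.9% and 23.7%. Mmp19, a protease of basement membranes, averaged 170 ± 39.5 (SD, n = 3) in untreated cells and 31.6 ± 13.0 (n = 16) in lung, higher by 2.23 and, in antibody-treated cells, by 2.05. Mmp8, the neutrophil collagenase, itself in the neutrophil list and a neighbour of Mmp10 in the cluster, averaged 2.44 ± 3.69 in untreated cells and 209.6 ± 249.7 in lung and was lower (log2 changes -2.995 and -2.91, at least 4.4-fold with the cells set to the filter level). Timp4 (-2.32 and -2.15) and Mmp23 (-1.79 and -2.07) were also lower, at least 2.71-fold and 3.99-fold by the same bound, although a second Timp4 probe set changed by only -0.69 in untreated cells. The cluster genes Mmp1a, Mmp1b and Mmp20 averaged under 7 in every group and were not tested.

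Genes that activate MMPs or hold them in check were called in both directions, at close to the shares of all genes. Of 18 tested against lung, 3 were higher and 4 lower in both cell groups, with a median of 0.04 in untreated cells. Of all genes, 17.5% were higher and 23.5% lower in untreated cells, and 16.9% and 23.7% in antibody-treated cells. The largest rise was that of Plau, the urokinase that activates plasmin and through it pro-MMPs, at 6.57 ± 0.87 on 1422139_at. Its mean was 4655 ± 1070 (SD, n = 3) in untreated cells and 32.2 ± 7.41 (n = 16) in lung, but among the 6 cell arrays it ran from 17.3 to 13383.5, and its other probe set, 1422138_at, changed by 0.18 and did not pass. Thbs2, a matrix glycoprotein that takes part in the clearance of Mmp2, rose by 4.89 from 16.4 ± 4.10 in lung to 951 ± 370 in untreated cells, at least 30.4-fold with lung set to the filter level, and Itgb3, an integrin subunit, by 2.18. Reck, a membrane-anchored inhibitor of Mmp2, Mmp9 and Mmp14, averaged 124 ± 34.2 in untreated cells, 125 ± 15.5 in antibody-treated cells and 1238 ± 209 in lung, with log2 changes of -2.96 and -2.95. Pcsk5 and Pcsk6, proprotein convertases, were lower (log2 changes -3.17, at least 4.52-fold by the bound, and -1.50), but 1452475_at, another set of Pcsk5, was higher at 1.48.

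Among the AP-1 and ETS factors, the AP-1 subunits Fosl1 and Fosb rose most. Runx2, the only RUNX gene sought, was not measured here. Of 12 tested, 3 were higher and 2 lower in untreated cells, and 4 and 2 in antibody-treated cells, with a median of -0.13 in untreated cells. The shares of all genes were 17.5% and 23.5% in untreated cells and 16.9% and 23.7% in antibody-treated cells. Fosl1, or Fra-1, averaged 870.2 ± 373 and 935 ± 45.2 (SD, n = 3) in the cells and 7.61 ± 3.92 (n = 16) in lung, a rise of 5.21 and 5.40, or at least 27.6-fold and 31.6-fold with lung, below the filter on all arrays, set to the filter level. Fosb rose by 4.21 and 4.00 and the ETS factor Etv4 by 1.99 and 1.79. Junb passed only in antibody-treated cells, at 1.08 against 0.98, a difference between the groups that was not called. Fos (-0.18) and Jun (-0.08) did not pass in untreated cells. Etv5 (-2.26) and Ets2 (-1.77) were lower.

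The matrix proteins that MMPs cut were split. Of 16 tested, 4 were higher and 7 lower in both cell groups, with a median of -0.37 in untreated cells. Among all genes 17.5% were higher and 23.5% lower in untreated cells, and 16.9% and 23.7% in antibody-treated cells. Vcan, a large proteoglycan, averaged 3359 ± 184 (SD, n = 3) in untreated cells and 78.8 ± 45.4 (n = 16) in lung, a rise of 5.28, while its set 1433043_at was lower at -2.80. Fibronectin (Fn1) rose by 1.68 and the collagen chain Col5a1 by 1.52. Elastin (Eln), the substrate of Mmp12, fell to 24.5 ± 9.84 in untreated cells from 1181 ± 314 in lung, a log2 change of -4.72. The laminin chain Lama2 (-3.79, at least 8.63-fold by the bound) and decorin, Dcn (-3.04), were lower too. Between antibody-treated and untreated cells, 45 genes of these 4 lists were tested and limma called 0, with 0 at an unadjusted p under 0.05 and the smallest at 0.0778 for Vtn.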

How the data were processed

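Messenger RNA of 22 samples was measured on 22 Affymetrix arrays; precision rests on how many arrays a group has, since arrays have no read depth. The deposited table holds linear PLIER intensities, per the submitters' processing notes; its version, settings and any scaling are not given in the sources used here. Gene names come from the platform annotation, which paired 34945 of 45037 probe sets with 1 symbol, 932 with several and 9160 with none listed; 64 control probe sets were left out.

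Intensities were transformed as log2(intensity + 16) and quantile normalized, and probe sets were tested where 3 or more arrays of the comparison exceeded their 40th percentile. Limma 3.58.1 (R 4.3.3) fitted linear models with a variance trend, two-sided, over all probe sets, with Benjamini-Hochberg adjustment at 0.05. Each cell group was set against the average of both lung groups in 1 model of the 4 groups, and a call also needed a 2-fold change; that model shares 1 variance per probe set, to which the 16 lung arrays contribute most. Antibody-treated and untreated cells were compared on 6 arrays, female and male lung on 16. SE and intervals are those of the model, SD those of the raw intensities unless given on the log2 scale. Other genes are represented by their brightest probe set, and up to 3 called genes per direction of each list are named. The fits were tested on simulated data. The members, lists, markers and tests were chosen with earlier results of these data known. Promoters were searched with Python 3.11.15 in RefSeq sequences of GRCm38.p6, those of Mmp2 and Mmp9 not used here. Alternatives were scaling, offset, filter, probe set choice, variance model, fold requirement, replicate block, male-labelled lungs 3 and 4, and leaving out each cell array.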

Additional observations from a re-analysis of the deposited data

Results flagged for a closer look

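Each of the 22 probe sets was looked at in each lung group, 44 sets of 8 readings in all, and 3 had a reading far from the other 7, where chance gives about 1 in 20. Mmp10 was at 9.77 in female-labelled lung 4, the next lowest being 16.5, all of them below the detection filter. Mmp12 was at 116 in female-labelled lung 2, where the next highest was 52.8. Mmp14 on 1416572_at was at 51.0 in male-labelled lung 2, where the next lowest was 90.4.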

How the results depend on the processing

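With 1 probe set per gene the counts were 3 higher and 3 lower in untreated cells and 2 higher and 3 lower in antibody-treated cells, since fewer probe sets enter; of all genes 17.5% were higher and 23.5% lower, and 16.9% and 23.7%. Without the fold requirement 10 of 21 were higher in untreated cells, where 44.8% of all probe sets were. The female against male count was 1 without male-labelled lungs 3 and 4, where 24 of all 29168 probe sets were called higher and 34 lower. Values that turned sign, none of them called, were Timp2 1420924_at at -0.16 without normalization and Mmp3 at 0.0909 with median centring in untreated cells, Mmp14 1416572_at at 0.029 and Timp2 1420924_at at 0.081 with array weights in antibody-treated cells, and Mmp12 at 0.26 between the sexes without male-labelled lungs 3 and 4; the cause was not tested.

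Leaving out each cell array gave 4 to 6 higher and 7 lower in untreated cells, 5 to 6 higher and 7 lower in antibody-treated cells, and 0 calls between them. Of all 30506 to 32533 probe sets tested, 5079 to 6561 were higher and 6311 to 6492 lower in untreated cells. In antibody-treated cells 5044 to 6414 of 30481 to 32422 were higher and 6341 to 6377 lower. Between the cell groups 0 to 8 of all were higher and 0 to 6 lower. Ranges that crossed 0 were -0.18 to 0.33 for Timp2 1420924_at and -0.31 to 0.15 for Mmp3 in untreated cells, -0.22 to 0.26 for Mmp14 1416572_at in antibody-treated cells, and, between the cell groups, -0.14 to 1.37 for Mmp10, -0.30 to 1.49 for Mmp13, -0.48 to 0.004 for Mmp3, -0.71 to 1.19 for Mmp9 and -0.48 to 0.04 for Timp1. Mmp10 and Mmp13 leave the test when an array of the compared group is dropped, because they then pass the filter on 2 arrays; those values, chosen after seeing the data, were computed without the filter. Of 847 single values under alternatives 809 kept direction and side of the threshold, 16 passed only there, 4 no longer passed (Mmp12 and Mmp9 1448291_at with an offset of 64) and 18 turned sign.

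With the replicate number as a block, 0 member probe sets were called between antibody-treated and untreated cells or between female and male lung. The block was not used for cells against lung. Same-numbered samples correlated at -0.173 to 0.038 over 3 cell pairs and -0.08 to 0.243 over 8 lung pairs in their deviations from the group means. Different-numbered pairs reached 0.17 in cells and 0.364 in lung, so a shared number did not mark the closest samples. The lung numbers still followed a pattern. Male-labelled and female-labelled lungs numbered 5 to 8 all correlated positively with each other, at 0.073 to 0.274. Most of their pairs with lower-numbered lungs of the other label were negative, down to -0.325. A split of the lungs by number was not tested. Signal near background limits Mmp10, Mmp12, Mmp13 and Mmp9 1448291_at, whose folds depend on the offset. It also limits Mmp9 1416298_at, which was near 0 on replicate 3 of each cell group. Under the alternatives its change against lung ran from -4.05 to -1.75 in untreated cells and from -3.82 to -1.46 in antibody-treated cells.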
